A study of Mus musculus with 12 samples.

Results

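In wild type forebrain of E12.5 mouse embryos, staged by embryonic day, 2353 of 55385 promoter windows carried a summit of H3K27me3 and a summit of Eed near the transcription start site and no summit of H3K27ac. These members were chosen by the deposited summit lists of the wild type libraries: a window belonged when its centre lay within 1 kb of an H3K27me3 summit and of an Eed summit and of no H3K27ac summit. The wild type levels of these 3 targets, and every ratio that contains 1 of them, are therefore given as a description with no test. The rule did not use the libraries of the mutant, RNA polymerase II (RNA-Pol2), input and IgG. Whether wild type input or IgG entered the authors' calling of the summits was not examined.

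H3K27me3, the trimethylation of lysine 27 of histone H3, is written by Polycomb repressive complex 2 (PRC2), in which Eed is the subunit that binds the mark and without which the complex does not methylate. The mark recruits Polycomb repressive complex 1 (PRC1), and both complexes keep genes of other cell lineages and of other body regions silent. In the embryonic forebrain such genes include the Hox genes and the fate genes of hindbrain, spinal cord and mesoderm. H3K27ac, the acetylation of the same lysine, marks active promoters and excludes trimethylation of that residue.

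The study used C57BL/6 forebrain of wild type embryos and of embryos of the genotype EedcKO, both untreated, with 1 library per genotype for each of Eed, input, H3K27me3, H3K27ac, RNA-Pol2 and IgG. Eed and its input were measured by X-ChIP, a chromatin immunoprecipitation of cross-linked chromatin, and the other targets by CUT&Tag, in which an antibody guides a transposase to cut the DNA beside it. What the 12 libraries share is the tissue, the stage and the strain, and the Eed allele, the driver of the deletion, the number of embryos and their sex are not stated in any source used here. No difference has a replicate check, no p-value can be given, and intervals cover counting error or the spread across windows only. Because whole tissue was used, a lower signal in each cell and a signal in fewer cells cannot be told apart.

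Promoters of 5 members and mature microRNAs of 3 others are shown as examples, and no library measured the microRNAs themselves. The 5 genes were chosen after their values were seen, 2 for a high H3K27me3 count (Hoxd12 and Ihh), 2 for a higher RNA-Pol2 count in EedcKO (Hes5 and Rragd) and 1 for a lower one (Gjb6). Each sequence runs from 250 bases before to 50 bases after the RefSeq start site, on the strand of the gene, 5′ to 3′, with every CG dinucleotide in capitals. Sequences are from RefSeq, GRCm38.p6.
Hoxd12, chr2:74674763-74675062, + strand: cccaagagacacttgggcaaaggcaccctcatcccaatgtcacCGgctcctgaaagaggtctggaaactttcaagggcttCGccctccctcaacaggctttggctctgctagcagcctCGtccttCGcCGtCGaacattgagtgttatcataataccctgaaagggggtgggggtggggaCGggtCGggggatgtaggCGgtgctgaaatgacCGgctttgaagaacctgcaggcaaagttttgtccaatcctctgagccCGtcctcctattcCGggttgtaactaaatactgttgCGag
Ihh, chr1:74951623-74951922, - strand: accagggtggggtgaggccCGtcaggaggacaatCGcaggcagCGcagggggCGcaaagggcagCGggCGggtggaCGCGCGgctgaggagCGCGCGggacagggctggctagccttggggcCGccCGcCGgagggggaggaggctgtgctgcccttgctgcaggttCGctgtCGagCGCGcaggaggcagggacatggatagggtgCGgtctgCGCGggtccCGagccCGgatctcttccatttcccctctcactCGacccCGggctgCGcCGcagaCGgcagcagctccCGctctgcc
Hes5, chr4:154960673-154960972, + strand: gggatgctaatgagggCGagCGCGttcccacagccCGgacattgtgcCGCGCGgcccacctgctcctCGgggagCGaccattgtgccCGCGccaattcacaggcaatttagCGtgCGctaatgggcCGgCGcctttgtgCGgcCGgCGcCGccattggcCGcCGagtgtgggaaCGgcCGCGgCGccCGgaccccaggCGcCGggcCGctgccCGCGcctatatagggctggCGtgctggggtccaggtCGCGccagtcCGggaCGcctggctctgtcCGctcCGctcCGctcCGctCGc
Rragd, chr4:32982748-32983047, + strand: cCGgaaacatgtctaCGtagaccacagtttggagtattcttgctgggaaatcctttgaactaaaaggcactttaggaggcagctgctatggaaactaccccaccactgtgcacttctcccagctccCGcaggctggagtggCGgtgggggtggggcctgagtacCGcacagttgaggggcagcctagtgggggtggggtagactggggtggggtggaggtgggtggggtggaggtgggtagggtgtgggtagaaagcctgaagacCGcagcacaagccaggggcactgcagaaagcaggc
Gjb6, chr14:57133562-57133861, - strand: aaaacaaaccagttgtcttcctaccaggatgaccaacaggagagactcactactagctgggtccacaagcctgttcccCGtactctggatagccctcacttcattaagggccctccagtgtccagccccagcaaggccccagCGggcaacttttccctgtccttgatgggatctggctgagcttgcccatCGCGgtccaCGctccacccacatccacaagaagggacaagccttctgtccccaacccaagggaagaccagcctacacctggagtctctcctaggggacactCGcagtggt

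The Hes5 promoter held 41 CG dinucleotides and the Ihh promoter 30, above the upper quartile of 20 over the 32817 promoters of the RefSeq table. Hoxd12 held 13 CG, between the table's median of 7 and its upper quartile, and Rragd 6 and Gjb6 6, just under the median. The share of G and C was 72.7% at Hes5 and at Ihh, 59.7% at Rragd, 57.3% at Gjb6 and 55.0% at Hoxd12. Of the 2353 members, 1372 (58.3%) matched a promoter of the table within 500 bp of the window centre, which is under the 80% set for a comparison over the members. A comparison of base composition or motifs over all members is therefore void and none is given.

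Of 1192 windows of microRNA genes, 27 were members (2.27%), a share below the 8.75% of protein-coding windows. The microRNA genes shown were picked after their values were seen: Mir615, which lies in the HoxC cluster, had the highest H3K27me3 count of the 27, and Mir34b and Mir34c lie side by side with overlapping windows. Capitals mark the seed, bases 2 to 8, which selects target messages, and both 3p arms of the Mir34 pair share the seed AUCACUA.
mmu-miR-615-3p: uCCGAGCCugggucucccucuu
mmu-miR-34b-3p: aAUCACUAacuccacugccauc
mmu-miR-34c-3p: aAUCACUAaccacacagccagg

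The window of Mir615 held 1754 H3K27me3 counts and 11 H3K27ac counts in wild type, Eed counts of 127 in wild type and 54 in EedcKO over inputs of 26 and 24, and 43 and 63 RNA-Pol2 counts. Mir34c held 150 H3K27me3 counts and 108 and 33 Eed counts, and Mir34b held 109 H3K27me3 counts and 108 and 35 Eed counts. The Mir34 pair thus sat in the lower part of the H3K27me3 range of the members, and Mir615 near its top, with Eed counts close to each other.

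Before the results, the labels of 2 libraries need a remark. Across the members, the library labelled EedcKO H3K27ac followed wild type H3K27me3, with a Pearson correlation of log2 values of 0.978 over 2353 windows, and ran against wild type H3K27ac (-0.215). The one with the label EedcKO H3K27me3 followed wild type RNA-Pol2 (0.768), wild type H3K27ac (0.618) and EedcKO IgG (0.54), and not wild type H3K27me3 (0.012). These correlations share the windows and their base composition and are descriptions. Both libraries are called by their labels below, ratios are given both by label and across labels, and no direction is drawn from the labels alone.

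Most members were promoters of protein-coding genes. Of 21419 protein-coding windows, 1874 (8.75%) were members, against 203 of 4974 windows of long noncoding RNA genes (4.08%) and 21 of 8367 pseudogene windows (0.251%). The 2353 windows carried 2349 symbols, and 564 of them overlapped another member, so that the members stood for 2069 separate places. On chromosome X, 24 of 935 protein-coding windows were members (2.57%), and on chromosome Y 0 of 252, while chromosome 15 had 104 of 765 (13.6%) and chromosome 4 had 154 of 1288. The X share lay below that of every autosome, the lowest of which was chromosome 16 with 44 of 649 (6.78%).

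Each member had both summits by the rule. H3K27me3 summits lay downstream of the start site in 1615 members (68.6%), with a median position 208 bp into the gene, and Eed summits in 1655 (70.3%), with a median position 137 bp into the gene. Eed summits were closer to the start, 1325 (56.3%) within 250 bp against 838 (35.6%) of the H3K27me3 summits. Both summits were a median of 310 bp apart, 1014 members (43.1%) had them within 250 bp of each other, and in 835 they lay on different sides of the start site.

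The summit lists give 1 position per peak. Many promoters with at least as much H3K27me3 as the typical member had no H3K27me3 summit within 1 kb. The reason was not tested. The members had a median of 223 wild type H3K27me3 counts. Of all windows, 2338 had at least that many, of which 1181 were members and 958 had no H3K27me3 summit within 1 kb. Hox genes had the largest number of such windows among the lists: all 39 had at least 223 counts, yet 35 of these had no H3K27me3 summit within 1 kb and 3 were members (Hoxd12, Hoxb1 and Hoxd1). Just inside the limit lay Ttbk1, with an H3K27me3 summit 1000 bp from the centre and 117 counts. Just outside lay Tmem151a at 1003 bp with 677 counts, Gpr50 at 1003 bp with 665, and Sel1l3 at 1004 bp with 108.
For the Eed summit, Camk2b lay inside at 999 bp with 114 wild type Eed counts and Rasd2 and Ch25h outside at 1002 and 1010 bp with 238 and 14. For H3K27ac, Cxcr4 was kept out by a summit at 960 bp with 87 wild type H3K27ac counts, and Cdon by one at 972 bp with 76, while Marveld1 stayed in with one at 1023 bp and 65, and Rai14 with one at 1024 bp and 91. Thus at none of the 3 limits were the windows kept out all higher or all lower than those kept in.

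The lists of genes below were named for their roles, and the share of members is set beside the 8.75% of all protein-coding windows. Basic helix-loop-helix (bHLH) lineage factors had 25 members of 53 (47.2%) and Sox factors 9 of 19 (47.4%). Genes of the cortical hem, choroid plexus and secreted signals had 29 of 65 (44.6%), and ventral forebrain genes 12 of 27 (44.4%). Nkx and Iroquois homeobox genes had 6 of 18 (33.3%), ion channels and transmitter receptors 31 of 99 (31.3%), and cortical progenitor genes 8 of 26 (30.8%). These shares lay 3 or more times above that of protein-coding windows at large.
Forkhead genes had 10 of 35 members (28.6%), axon guidance genes 19 of 67 (28.4%), and homeobox genes of midbrain, hindbrain and spinal cord 10 of 38 (26.3%). Genes of endothelium, mesenchyme and blood had 10 of 40, cortical neuron genes 7 of 29 (24.1%), T-box and Gata genes 4 of 22 (18.2%), and the list with Pax3 and Six5 2 of 15 (13.3%). Among the Polycomb genes themselves, Epop and Phf19 were members of 13 PRC2 genes, and Pcgf5 and Cbx2 of 20 PRC1 genes. Lists of genes used by every cell had few or no members, 1 of 45 ribosomal protein genes (Rpl3) and 0 of 20 housekeeping genes, and none of either list had 223 H3K27me3 counts. Of 7 CDK inhibitor genes 0 were members, but 4 had at least 223 counts and no H3K27me3 summit within 1 kb.

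**Figure D1:**
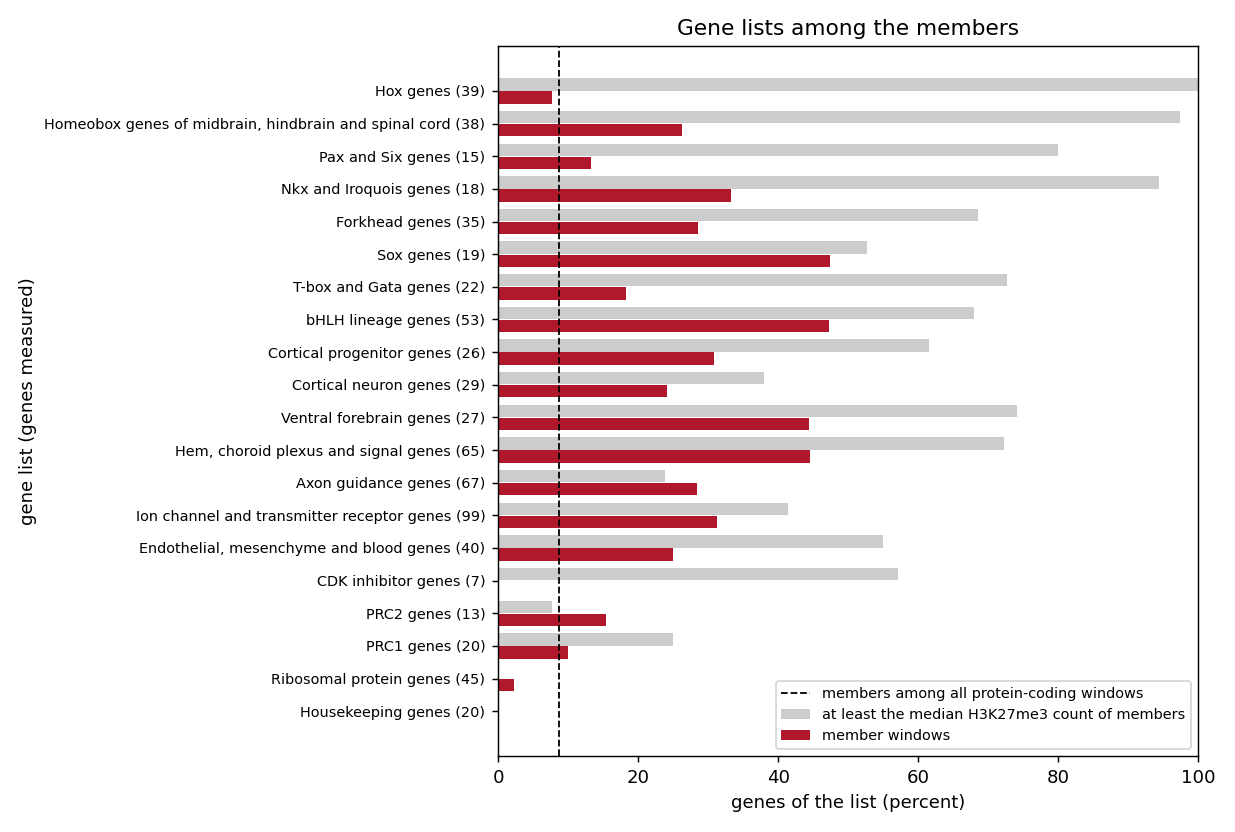
Share of each gene list (percent of its measured genes, number in brackets) that were members (red) or had at least the members' median of 223 wild type H3K27me3 counts (grey), with the 8.75% of all protein-coding windows that were members as a dashed line. All 39 Hox genes reach the grey criterion and 3 are members, while bHLH and Sox genes have the largest red bars.

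In wild type, the H3K27me3 counts of the members ran from 39 to 4821, with a median of 223 and 5% of them above 1108. The 2 windows with the highest counts, AY036118 and CT010467.1, overlap on chromosome 17 and also held 1237 and 812 input counts, where the median of the members was 24. The same windows held 2049 and 1649 wild type Eed counts and 1180 and 989 wild type IgG counts, so they were high in every library, and the medians without them stand in the closing section. Hoxd12, a homeobox gene of the posterior body axis, came next among named protein-coding genes with 2136 counts.
Mnx1, a homeobox gene of motor neurons, held 1855, and Barx1, a homeobox gene of mesenchyme, 1789. Tlx2, a homeobox gene of enteric neurons, held 1764, the ligand genes Wnt10b and Ihh 1741 and 1712, and Irx2 1688. Pou4f2 of retinal ganglion cells held 1684, Hand1 of heart and extraembryonic tissue 1670, and Foxe1 of the thyroid 1661. These 10 genes are known mainly from tissues and regions other than the forebrain.

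Eed counts of the members ran from 14 to 2049 in wild type, with a median of 109 and a range from the 5th to the 95th percentile of 28 to 241. Scaled by promoter reads and window length (RPKM, reads per kilobase of window per 1000000 promoter reads of the library), the median was 27.6 for Eed beside 11.8 for input. The H3K27ac promoters that had an Eed summit and no H3K27me3 summit, 4445 windows, had a median Eed of 26.9 RPKM beside 13.3 for input. The Eed level of the members was thus close to that of acetylated promoters, with their interquartile ranges of 17.2 to 40.6 and 17.0 to 38.3 RPKM nearly coinciding. In 337 members (14.3%) the wild type Eed RPKM was below the input RPKM even though the Eed list had a summit there. That count rests on library totals, by which the median over all windows was 2.79 RPKM for Eed beside 9.33 for input. Relative to the median tested window, the ratio of wild type Eed to its input was above 0 at 2337 members (99.3%).
Within the members, H3K27me3 and Eed counts were only weakly related (Pearson 0.149 and Spearman 0.132 of log2 values over 2353 windows, which share libraries and base composition). Hoxd12, with 2136 H3K27me3 counts, had 47 Eed counts over 32 input counts. Boll, a germ cell gene of an RNA-binding protein, had 339 Eed counts over 20 input counts and 86 H3K27me3 counts.
The named protein-coding members with the most Eed were Sall3, a zinc finger gene (363 counts), Kcnc4, a potassium channel (350), Bnc2 (349), Gpr27, a receptor without known ligand (347), Boll (339) and Shank3, a scaffold of the synapse (337). They were followed by Pcgf5, a PRC1 subunit (332), Insm2 (331), Tshz3 (327) and Map3k5, a stress kinase (321). Of the 10 with the most Eed, none was among the 10 with the most H3K27me3. Unrelated lists of 10 from the 1839 named protein-coding members would rarely share a gene, so nothing is read from this.

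**Figure D2:**
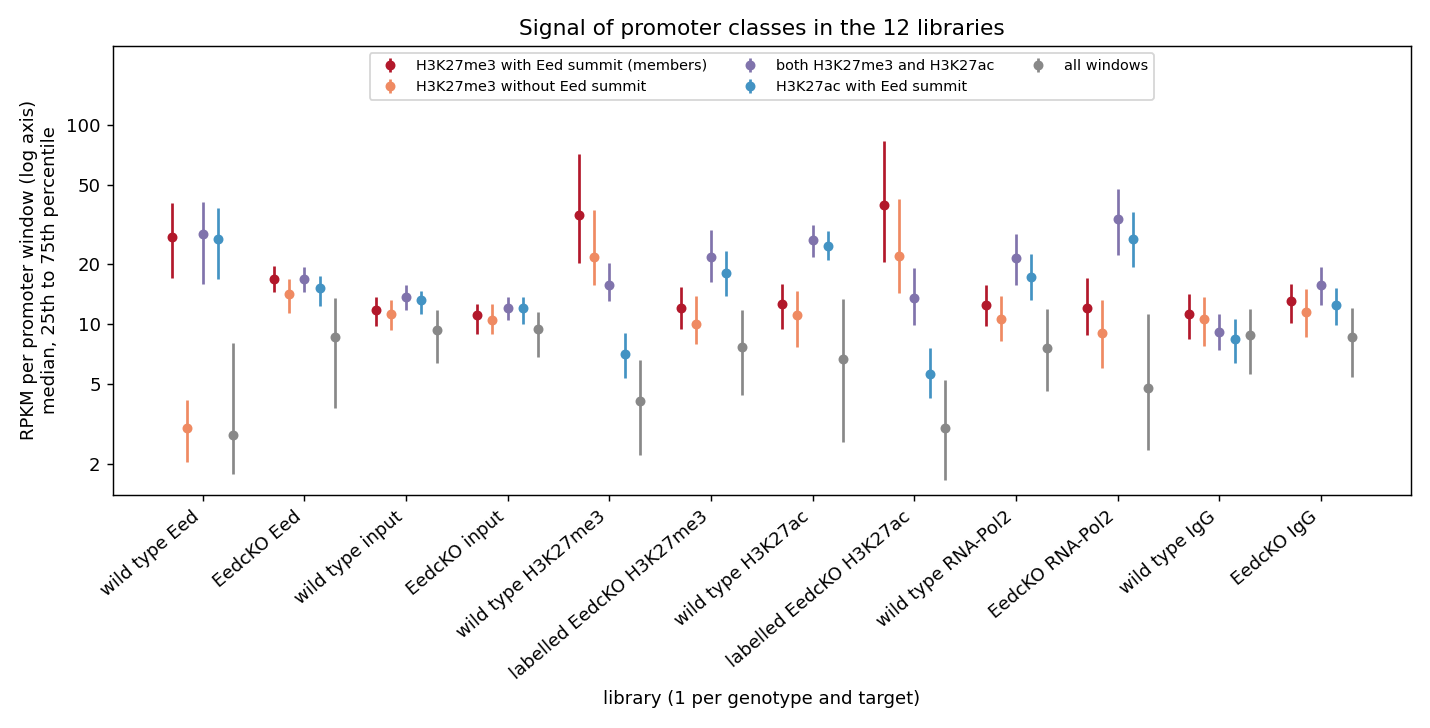
Median RPKM per promoter window (log axis, lines from the 25th to the 75th percentile) of the members and 4 other sets of windows in the 12 libraries, with 1 library per genotype and target. The members stand at 35.3 RPKM in wild type H3K27me3, 12.1 in the library labelled EedcKO H3K27me3 and 39.7 in the library labelled EedcKO H3K27ac, and their wild type Eed of 27.6 RPKM is level with the 26.9 of acetylated promoters.

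In EedcKO, the Eed counts of the members fell into a narrow range, with a median of 49 and the 5th to 95th percentile at 30 and 66, beside an input median of 21. Log2 ratios below carry a pseudocount of 0.5 RPKM, leave out windows whose mean over both libraries is below 1 RPKM, and are given relative to the median tested window, which for Eed moved by 0.88 on the log2 scale between library totals. On this scale the median Eed ratio of EedcKO to wild type was -1.61 at the members (95% interval across windows -1.65 to -1.57), and 73.4% of them were at least 2-fold lower, where 30.0% of all windows were. The rule used wild type Eed, so nothing is read from that difference. Acetylated promoters with an Eed summit had -1.75.

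By label, H3K27me3 went from a median of 223 counts in wild type to 41 in EedcKO at the members. The median relative ratio was -2.40, and 89.1% of the members were at least 2-fold lower, where 13.0% of all windows were. By label, H3K27ac went from a median of 49 to 288 counts, a median relative ratio of 2.69, and 88.2% of the members were at least 2-fold higher, where 18.2% of all windows were. Across labels the picture was another. From wild type H3K27me3 to the library labelled EedcKO H3K27ac the median relative ratio was 0.45, and 1.10% of the members were at least 2-fold higher and 0.0425% lower, where 2.55% and 4.49% of all windows were.
The library labelled EedcKO H3K27me3 had a median ratio of -0.12 to wild type H3K27ac at the members, where its median ratio to EedcKO IgG was 0.03. At promoters with H3K27ac its ratio to wild type H3K27ac was further from 0. It was -0.40 at windows with both marks and -0.58 at acetylated promoters with an Eed summit, of which 18.6% were at least 2-fold lower. Of the members, 1942 (82.5%) had a summit of the library labelled EedcKO H3K27ac within 1 kb, where 5.92% of all windows and 2.23% of acetylated promoters with an Eed summit had one. The library labelled EedcKO H3K27me3 had a summit at 13 members (0.552%), where 1.18% of all windows had one.
Ihh shows both readings. Its window, chr1:74950672-74952671 on mm10, held 1712 counts in wild type H3K27me3, 44 in the library labelled EedcKO H3K27me3, 34 in wild type H3K27ac and 2443 in the library labelled EedcKO H3K27ac. The 2 high counts stand across labels and the 2 low counts also.

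The Eed signal in EedcKO could be set against its own input, a ratio that the rule did not use. Whether this signal is Eed protein or background of the immunoprecipitation was not tested. At the members the median relative log2 ratio of EedcKO Eed to EedcKO input was 0.63 (95% interval across windows 0.61 to 0.64). Of them, 18.6% were at least 2-fold higher than the median tested window, where 5.16% of all windows were, and 0.127% at least 2-fold lower, where 18.0% of all windows were. In acetylated promoters with an Eed summit the median was 0.33 (0.31 to 0.35), in windows with both H3K27 marks 0.48 and in H3K27me3 windows without an Eed summit 0.43. The members thus had the highest median of the 4 classes. Their ratio of wild type Eed to its input, which the rule used, was also the highest. It was 2.52, against 2.33 at acetylated promoters with an Eed summit, 2.32 at windows with both marks and -0.43 without an Eed summit. In EedcKO, members and windows with both marks had the same median Eed of 16.9 RPKM, beside inputs of 11.1 and 12.1 RPKM.
The share with a summit was highest at the members too, though its interval overlapped that of windows with both marks. Of the members, 713 had an EedcKO Eed summit within 1 kb, 30.3% (Clopper-Pearson 95% interval 28.4 to 32.2%), where 9.40% of all windows had one. Windows with both marks had 28.6% (25.2 to 32.2%), acetylated promoters with an Eed summit 23.1% (21.9 to 24.3%), and H3K27me3 windows without a wild type Eed summit 15.6%. Whether these windows differ in mappability or base composition was not tested, and the EedcKO input had medians of 21 to 23 counts in the members, windows with both marks and acetylated promoters.

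**Figure D3:**
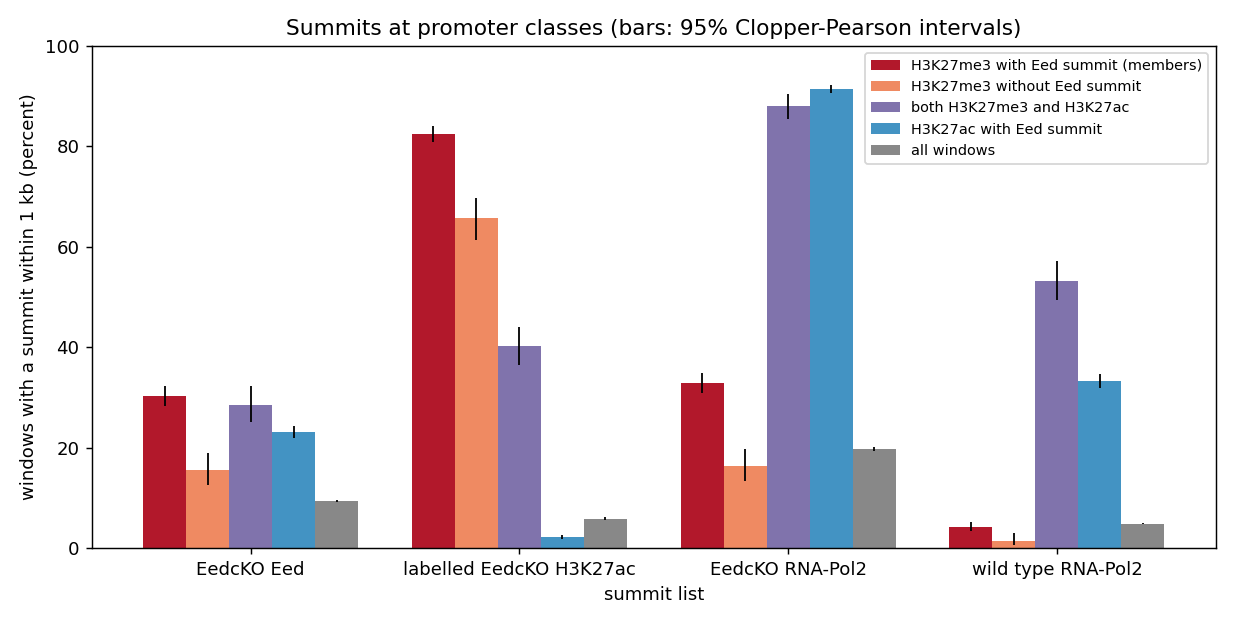
Percent of windows with a summit within 1 kb in 4 summit lists that the choice of members did not use, by class of window, with 95% Clopper-Pearson intervals. Members reach 30.3% for EedcKO Eed and 82.5% for the library labelled EedcKO H3K27ac, and 32.9% for EedcKO RNA-Pol2, where acetylated promoters with an Eed summit reach 91.5%.

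The EedcKO Eed signal was somewhat higher at members with more wild type H3K27me3. The levels were only weakly related across members (Pearson 0.264 and Spearman 0.241 of log2 values over 2353 windows). With the members split into 4 equal parts, from the fewest H3K27me3 counts (39 to 129) to the most (452 to 4821), the median ratio of EedcKO Eed to its input was 0.49, 0.61, 0.67 and 0.74. EedcKO Eed summits were found at 23.6%, 29.0%, 33.3% and 35.4% of these parts. The input median was 21 counts in each part, and the wild type Eed median went from 99 to 121.5 counts. The ratio of wild type Eed to its input, which the rule used, also went up over these parts, from 2.32 to 2.75. The 95% intervals across windows were 0.44 to 0.53 in the lowest part and 0.71 to 0.77 in the highest. They treat the windows of 1 Eed and 1 input library as independent, so they are no check of this trend.

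Among named protein-coding members with at least 50 counts over both libraries, Foxn4, a forkhead gene of retina and spinal cord, had the highest ratio, 58 Eed counts over 8 input counts in EedcKO, where wild type had 137 over 32. Its relative log2 ratio was 2.15, with a 95% counting interval of 1.20 to 3.55. Kcnq1, a potassium channel known from heart and ear, held 61 over 10, Gcnt4, a glycosyltransferase, 54 over 9, and Misp3 54 over 9. Low input counts enter each of these ratios.
Ihh, the hedgehog ligand of growing cartilage, held 69 over 12 in EedcKO and 274 over 27 in wild type, a ratio of 1.86 (1.04 to 2.96). Rragd held 48 over 8, Zfp853 67 over 12, Slc35f3 45 over 8 and Col8a2, a collagen, 65 over 12. Car15, a carbonic anhydrase, stood apart: it held 16 Eed counts over 23 input counts in wild type and 65 over 12 in EedcKO. Its Eed summit in wild type lay 901 bp from the centre, near the limit of the rule.
Across lists the ratio varied: the median was 1.07 over 10 forkhead members, of which 6 were at least 2-fold higher, and 0.93 over 29 members of the hem and signal list, of which 11 were. It was 0.75 over 31 ion channel members with 7 higher, and 0.68 over 25 bHLH members with 6 higher. Of 10 members of the endothelial, mesenchyme and blood list none was at least 2-fold higher, with a median of 0.62, and of 8 cortical progenitor members 2 were, with a median of 0.39. Beside these stand a median of 0.63 over all members, of which 18.6% were at least 2-fold higher, and 5.16% of all windows.

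RNA-Pol2 at the members in wild type lay above the median of all windows and below that of the promoters with H3K27ac. The median was 62 counts (5th to 95th percentile 32 to 111), and the interquartile range was 9.87 to 15.7 RPKM beside 8.50 to 14.2 in IgG, where all windows had a median of 38 counts, or 7.65 RPKM beside 8.85 in IgG. A wild type RNA-Pol2 summit lay at 100 members (4.25%), where 4.92% of all windows had one. Acetylated promoters with an Eed summit had a median of 17.3 RPKM beside 8.50 in IgG and a summit at 33.3%, and windows with both marks 21.5 RPKM and 53.3%. The share with a summit at the members was thus near that of all windows, and the promoters with H3K27ac stood above both. The named protein-coding members with most wild type RNA-Pol2 were Mxd3, a partner of Max (287 counts), Nanos1, an RNA-binding protein (209), L3mbtl1, a reader of methylated lysines (189), Tnpo2, a nuclear import receptor (187), and Kif17, a kinesin (183).

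In EedcKO, the members had a median of 93 RNA-Pol2 counts, which is 12.1 RPKM, beside 13.1 in IgG. Relative to the median tested window, which moved by -0.41, their median log2 ratio was 0.41 (0.39 to 0.44), and with library totals and no such reference it was 0.00. At least 2-fold higher were 268 members (11.4%), where 12.2% of all windows were, and at least 2-fold lower were 6 (0.255%), where 7.86% of all windows were. The share of members that were higher is near that of all windows. Acetylated promoters with an Eed summit had a median of 1.03 with 53.7% higher, windows with both marks 1.0 with 336 of 672 higher, and H3K27me3 windows without an Eed summit 0.21.
IgG was also higher in EedcKO relative to the median window, with medians of 0.24 at the members, 0.56 at acetylated promoters and 0.81 at windows with both marks. Its part in the RNA-Pol2 ratios was not tested. EedcKO RNA-Pol2 summits lay at 774 members (32.9%), where 19.7% of all windows and 91.5% of acetylated promoters with an Eed summit had one. The EedcKO list holds 25930 summits and the wild type list 3716, so the number of summits at the members cannot be compared between genotypes. Of the 100 members with a wild type summit 87 also had an EedcKO summit. The same share over all windows with a wild type summit was not computed, so this is not read as a trait of the members.

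**Figure D4:**
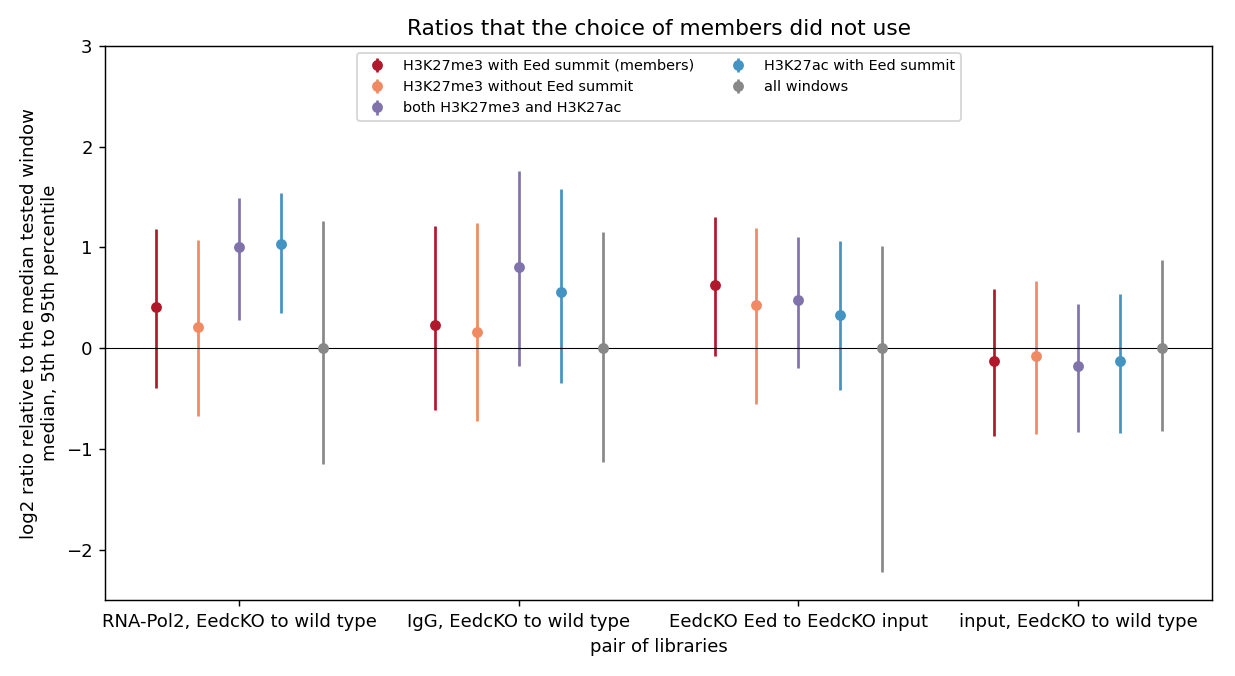
Relative log2 ratios of 4 pairs of libraries, for the members and 4 other sets of windows (dots: medians, lines: 5th to 95th percentile of windows). The rule for the members did not use these libraries. Any part of wild type input or IgG in the calling of the summits was not examined. Members have a median of 0.41 for RNA-Pol2, where acetylated promoters with an Eed summit have 1.03, and the highest median of EedcKO Eed to input, 0.63.

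Members with the least H3K27me3 in wild type had more RNA-Pol2 in EedcKO. In the 4 parts, from the lowest to the highest H3K27me3, the median EedcKO RNA-Pol2 count was 107, 94, 89 and 87. Across members the levels were hardly related (Pearson -0.088 and Spearman -0.12 of log2 values over 2353 windows). From the lowest to the highest of these parts, the median RNA-Pol2 ratio was 0.62, 0.41, 0.38 and 0.31, and EedcKO RNA-Pol2 summits were found at 51.2%, 31.2%, 29.0% and 20.1%. Wild type RNA-Pol2 summits were found at 8.28%, 3.24%, 3.07% and 2.38%. The IgG ratio in the same order was 0.32, 0.19, 0.22 and 0.24, and the wild type H3K27ac median, which the rule limits, went from 55 to 41 counts. The members with an EedcKO RNA-Pol2 summit had a median of 161.5 wild type H3K27me3 counts and those without 254.

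**Figure D5:**
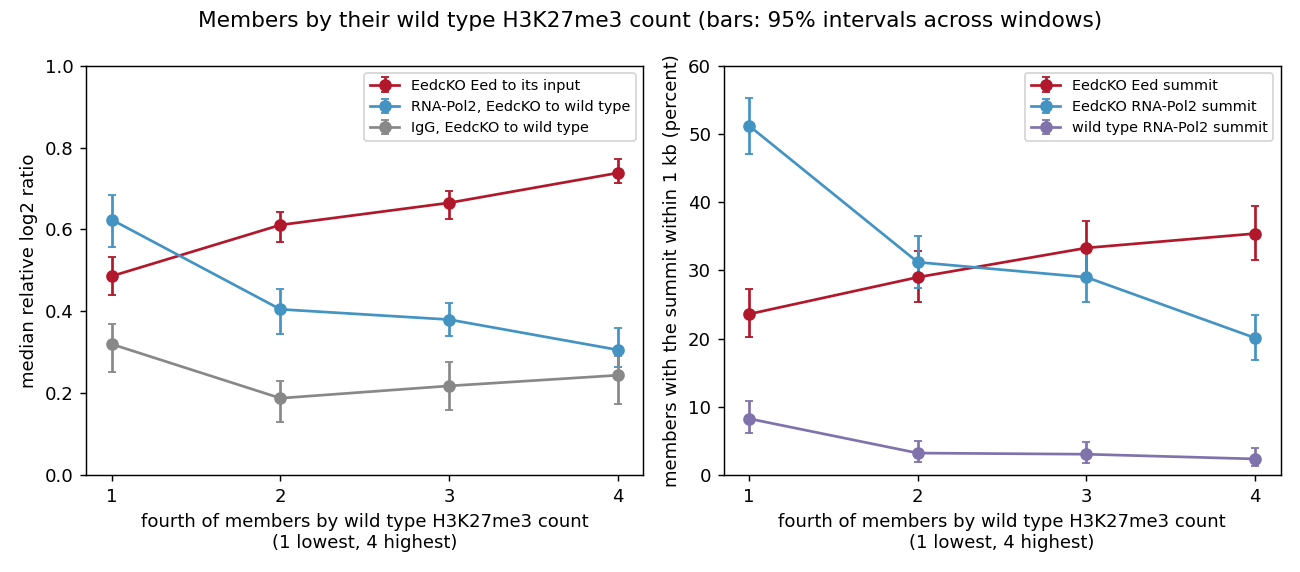
Members in 4 parts by their wild type H3K27me3 count, from 39 to 129 counts (1) to 452 to 4821 counts (4), with 95% intervals across windows. Left, the median relative log2 ratio of EedcKO Eed to input goes up from 0.49 to 0.74 while that of RNA-Pol2 goes down from 0.62 to 0.31. Right, the percent of members with an EedcKO Eed summit goes up from 23.6 to 35.4 and with an EedcKO RNA-Pol2 summit down from 51.2 to 20.1.

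Among named protein-coding members with at least 100 RNA-Pol2 counts over both genotypes, the largest increase was at Rragd, a Rag GTPase that passes amino acid signals to mTORC1 (chr4:32982037-32984036 on mm10). Its RNA-Pol2 counts were 36 in wild type and 177 in EedcKO, and IgG held 13 and 38. It held 237 and 48 Eed counts, 25 and 8 input counts, 66 and 49 counts in the H3K27me3 libraries by label and 72 and 69 in the H3K27ac libraries by label. The relative RNA-Pol2 ratio was 2.01 (counting interval 1.56 to 2.64).
Gli3, a transcription factor of the hedgehog pathway that patterns the dorsal forebrain, held 57 and 256 RNA-Pol2 counts, with IgG of 23 and 27 and 162 wild type H3K27me3 counts. Its ratio was 1.91 (1.53 to 2.39). Hes5, an effector of Notch signalling in neural progenitors (chr4:154959923-154961922 on mm10), held 57 and 211 RNA-Pol2 counts with IgG of 22 and 41. Its ratio was 1.63 (1.24 to 2.12), and the window had 181 counts of wild type H3K27me3, 54 of wild type H3K27ac, and 172 and 53 of Eed over inputs of 24 and 17. Both genes lay below the members' median of H3K27me3.
The others of the 8 largest were Zfp638, a zinc finger gene (33 and 129 counts), Nkd2, an antagonist of Wnt signalling (37 and 142), Larp1b, a La-related RNA-binding protein (57 and 215), Jph1, a junctophilin (61 and 226), and Ctu2, an enzyme of tRNA modification (73 and 263). All 8 had fewer than 223 wild type H3K27me3 counts, from 66 at Rragd to 181 at Hes5.

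The largest decreases were smaller. Mal2, a protein of membrane traffic, held 68 and 35 RNA-Pol2 counts, a ratio of -1.08 (-1.81 to -0.57), and was the only 1 of the 8 that was at least 2-fold lower. Gjb6, a connexin of glia and inner ear (chr14:57132611-57134610 on mm10), held 75 and 44 RNA-Pol2 counts, a ratio of -0.92 (-1.56 to -0.43), with IgG of 46 and 43. It held 334 wild type H3K27me3 and 71 and 50 Eed counts over inputs of 20 and 18.
Zfp385c held 75 and 44 RNA-Pol2 counts, Foxe3 of the lens 68 and 40, Dpp4, a peptidase, 63 and 37, Npy5r, a neuropeptide Y receptor, 74 and 44, Ildr1 of tight junctions 72 and 44, and Slc9a3, a sodium/proton exchanger, 69 and 43. At Dpp4, Ildr1 and Slc9a3 the IgG counts went the other way, from 27 to 46, from 38 to 53 and from 41 to 54. The wild type RNA-Pol2 counts of these genes, from 63 to 75, were close to the members' median of 62.

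By role, the Hox members had no more RNA-Pol2 in EedcKO than the median window: Hoxd12 held 63 counts in both genotypes, Hoxb1 64 and 52, and Hoxd1 58 and 40. Their relative ratios were -0.19, -0.47 and -0.68. Hoxd12 (chr2:74674013-74676012 on mm10) held 47 and 61 Eed counts over inputs of 32 and 16, 2136 and 18 counts in the H3K27me3 libraries by label and 16 and 2849 in the H3K27ac libraries by label, with IgG of 22 and 33. Pax3, a factor of dorsal neural tube and muscle, had 46 and 38 RNA-Pol2 counts, and Olig3 of the hindbrain and spinal cord 47 and 36.
In the list of homeobox genes of midbrain, hindbrain and spinal cord none of 10 members was at least 2-fold higher, with a median ratio of 0.53, and Mnx1 held 60 and 101 counts. Of 10 endothelial, mesenchyme and blood members none was higher (median 0.38), with Flt1, a VEGF receptor, at 44 and 81 and Foxc1 at 43 and 70 counts. Of 8 cortical progenitor members 3 were higher (median 0.73) and of 19 axon guidance members 4 were (median 0.56). Of 9 Sox members 2 were higher (median 0.73), of 29 hem and signal members 3, of 25 bHLH members 2, of 12 ventral forebrain members 2, and of 31 ion channel members 1. Beside these counts stand the 11.4% of all members and 12.2% of all windows that were at least 2-fold higher. No member of any list was at least 2-fold lower.
Tbx20, a T-box factor of the heart, held 41 and 101 counts, and Wnt1, the ligand of the midbrain border, 55 and 124. Among the Polycomb genes, Pcgf5 held 41 and 132 counts (ratio 1.42), Cbx2, a PRC1 reader of H3K27me3, 50 and 144 (1.28), Epop, a PRC2 partner, 47 and 114 (1.03), and Phf19, a PRC2 partner, 66 and 139 (0.84). 3 of these 4 were past 2-fold, and they had 140 to 738 wild type H3K27me3 counts.

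The forebrain marker genes Emx2, Lhx2, Pax6, Dlx2 and Six3 were not among the members. They held 387 to 999 wild type H3K27me3 counts and 16 to 79 wild type RNA-Pol2 counts. The windows of the marker genes of vessels, mesenchyme and posterior neural tube that were members, Kdr, Foxc1 and Hoxb1, held 758, 1444 and 1527 wild type H3K27me3 counts. Other markers of these tissues ranged widely, with 17 at Pecam1, 55 at Cdh5, 27 at Tek and 99 at Pdgfrb, but 1429 at Twist1 and 2108 at Lbx1, and those of microglia and blood held 16 to 112. Eed itself was no member: its window (chr7:89979983-89981982 on mm10) held 31 wild type H3K27me3 counts and 121 and 40 Eed counts, and whether the gene is deleted cannot be read from them.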

How the data were processed

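The deposited promoter tables, which the authors named for RPKM, hold whole-number read counts over windows of 2 kb around annotated start sites, with totals from 948955 to 3842779 per library. The authors' summit lists give 1 position per peak and its score on the −log10 scale, of p or q, which the sources leave unstated. Per the submitters' processing notes, the tools were MACS2 2.2.7.1, Bowtie2 2.4.1, ChIPseeker 1.22.1 and deepTools 3.4.0 and the build mm10. How reads were filtered is not stated there. Each library is its own group, as the labels name it, and nothing was averaged.

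Members and gene lists were chosen with earlier results of these data known. Counts were turned into RPKM by window length and the library's promoter total. Log2 ratios carry a pseudocount of 0.5 RPKM, leave out windows with a mean below 1 RPKM and are relative to the median tested window. A fold of 2 was the rule of size, and the pseudocount makes the change of low windows look smaller. The plan assumed RPKM, so this conversion was added. The named genes are the 10 with the highest wild type H3K27me3, wild type Eed or EedcKO Eed to input, the 8 largest RNA-Pol2 increases and decreases, the 5 with the highest wild type RNA-Pol2, up to 3 per list and those at the limits of the rule; others were picked after their values were seen. Medians have order-statistic intervals, shares Clopper-Pearson intervals, and single windows exact intervals of the ratio of counts, all at 95%. Intervals of medians and of shares cover the sampling of windows, taken as independent although 564 members overlap another member. Intervals of single windows cover counting error only. They take each read as its own molecule, and the same molecule can be read more than once, so they can be too narrow. Of the forebrain markers, 1 is not reported here. RefSeq gene types matched 39241 windows. Scripts were tested on simulated data, with Python 3.11.15, pandas 2.3.3, scipy 1.17.1, and R 4.3.3 with edgeR 4.0.16, which was used for TMM factors only.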

Additional observations from a re-analysis of the deposited data

How the results depend on the processing

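Of 69 alternatives of the results at the members, 38 stayed within the 95% interval of the value reported or, for the number of members, within 1.5 times of it, 31 moved beyond it and 0 changed direction. With summits required within 500 bp, 1307 windows remained, and the medians were -1.52 for Eed (EedcKO to wild type) and 0.37 for RNA-Pol2. With only summits at or above the median score of their list, the medians were -1.70 for Eed, -2.87 for H3K27me3 by label, 0.50 for the library labelled EedcKO H3K27ac to wild type H3K27me3, 3.24 for H3K27ac by label, 0.38 for RNA-Pol2 and 0.66 for EedcKO Eed to its input, and 3.25% had a wild type RNA-Pol2 summit. With library totals and no reference to the median window they were, in the same order of ratios, -0.73, -1.55, 0.16, 1.65, 0.0017 (95% interval -0.02 to 0.03) and 0.60, so the RNA-Pol2 direction depends on this reference. With TMM factors the Eed, label-crossing H3K27me3, H3K27ac and RNA-Pol2 medians were -2.12, 0.57, 2.87 and 0.47. A pseudocount of 0.1 gave -1.73 for Eed, -2.48 for H3K27me3, 0.48 across labels, 2.83 for H3K27ac and 0.44 for RNA-Pol2. With no filter on low values the 6 medians were -1.49, -2.34, 0.40, 2.56, 0.35 and 0.60. Leaving out H3K27ac summits to 2 kb, taking 1 window per overlapping set (2069 windows) and leaving out the 2 windows with high input, an alternative chosen after seeing the data, moved no result. The causes of these shifts were not tested. No paired analysis was possible because each genotype and target had 1 library. The low input counts, a median of 21 per member in EedcKO, limit single-gene ratios of Eed to input.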
